A study of Mus musculus with 4 samples.

Results

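The genes described here are 52 mouse genes of growth factor signalling: FGF, PDGF, VEGF, neurotrophin, MET, KIT and TAM receptors, a set of their ligands, the kinases and adaptors of the RAS-ERK cascade, the inhibitors that restrain it and the PEA3 group of ETS transcription factors. They were chosen by gene symbol, and all 52 had annotated transcripts among the 32564 genes that the transcript tables cover. The 4 libraries came from neural stem cells of gfap:GFP transgenic mice, which carry a fluorescent reporter driven by the promoter of the glial filament gene Gfap. The mice were 3 months old, of mixed CD1/C57BL/6 background and untreated, and cells were sorted as Prom1+, EGFR+ and GFAP+, the surface and reporter combination that the labels call activated. The series' design text speaks of quiescent cells after injection of aCSF or of miR204 antagomirs, whereas every sample label names untreated activated cells, and the labels were followed. All 4 libraries therefore form 1 group, so nothing is compared between conditions. Genes are set against a fixed level and against each other within a library. The labels do not say whether the libraries came from separate animals, so the spread between them may be technical.

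Growth factor receptors are membrane proteins whose inner part is a tyrosine kinase. When a ligand joins receptors into pairs, the kinases recruit the adaptor Grb2 and the exchange factor Sos1, which load RAS proteins with GTP, and RAS then starts the RAF, MEK and ERK kinase cascade. ERK activity raises the transcripts of the ETS factors Etv1, Etv4 and Etv5 and of its own inhibitors, the Sprouty proteins and the phosphatases Dusp4 and Dusp6, so these transcripts are widely used as a readout of the cascade. In the adult forebrain FGF and EGF maintain neural stem cells in culture, and FGFR3 and the truncated form of the neurotrophin receptor TrkB are known from astrocytes.

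The libraries held 16978938 to 23727664 estimated counts. The 3 sorting genes were detected in all 4 libraries. Gfap was at 107.0 to 227.1 TPM, Egfr at 71.6 to 121.5 TPM and Prom1 at 14.6 to 31.7 TPM. TPM are transcripts relative to all those of a library scaled to a fixed total, a level corrected for transcript length. All 10 stem cell markers lay above 1 TPM, as did 62.8% of all tested genes. Markers of cells that the gate should leave out were also present. Above 1 TPM lay all 7 oligodendrocyte and all 4 ependymal markers, 7 of 8 microglial, 6 of 7 neuronal and 3 of 4 neuroblast markers. The summed level of 7 oligodendrocyte markers was 2504 to 4287 TPM, that of 7 neuronal markers 1041 to 1286 TPM, that of 4 ependymal markers 427.6 to 845.1 TPM, that of 8 microglial markers 105.1 to 368.8 TPM and that of 4 neuroblast markers 175.6 to 311.4 TPM. Library 1 was lowest of the 4 for the microglial, oligodendrocyte and ependymal sums and highest for the neuronal and neuroblast sums. In bulk RNA, fewer cells of a type and less RNA per cell cannot be told apart.

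Of the 52 genes, 41 lay above 1 TPM and 6 below, and 5 could be placed on neither side (limma on log2(TPM + 1), adjusted p under 0.05 over 19914 genes). That is 78.8% above and 11.5% below, where 62.8% of all tested genes lay above 1 TPM and 23.2% below. Against 5 TPM, 31 lay above and 13 below, where 49.7% of all tested genes lay above 5 TPM and 37.8% below. By role, 12 of 17 receptors, 9 of 14 genes in the ligand group, all 8 transducers, 9 of 10 inhibitors and all 3 ETS factors lay above 1 TPM. The ligand group holds 12 secreted ligands, of which 7 lay above 1 TPM, and the intracellular FGF homologous factors Fgf13 and Fgf14. The 6 below were the VEGF receptors Flt1, Kdr and Flt4, the hepatocyte growth factor receptor Met, and the ligands Fgf10 and Pdgfd. The 5 in neither group were the stem cell factor receptor Kit, the ligands Fgf9, Pdgfb and Vegfc, and the inhibitor Spry3. In every library the median of the 8 transducers was the highest of the 5 roles, at 6.03 ± 0.08 on the log2(TPM + 1) scale (SD, n = 4), and the median of the ligand group was the lowest, at 2.70 ± 0.26, or 2.69 ± 0.26 for the 12 secreted ligands. The receptors' median was 4.78 ± 0.37, that of the ETS factors 4.67 ± 0.30 and that of the inhibitors 3.21 ± 0.20 on the same scale. Receptors and ETS factors did not keep a fixed order over the libraries.

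**Figure D1:**
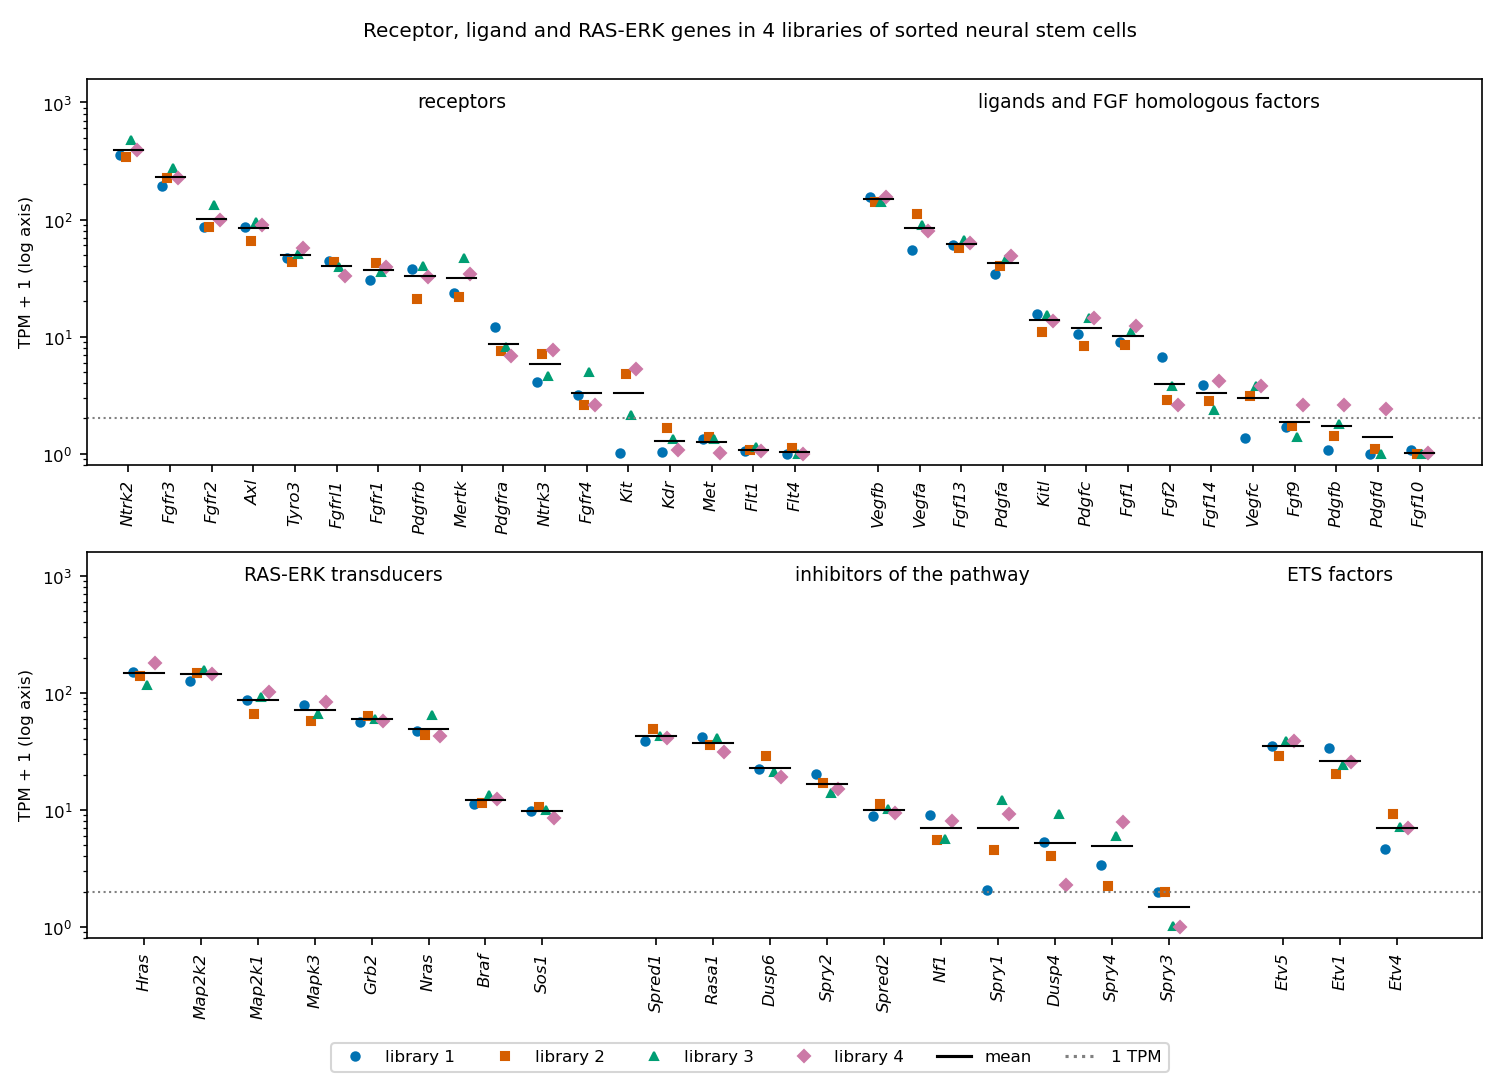
Level of each of the 52 genes as TPM + 1 on a log axis, with genes grouped by role and ordered by mean within a role, 1 symbol per library and a bar at the mean. The dotted line marks 1 TPM. Ntrk2 and Fgfr3 are the highest receptors and Vegfb is the highest ligand, while Spry1, Kit, Dusp4 and Spry4 spread most widely between libraries.

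The transcript with the highest level of all 52 genes was a truncated form of Ntrk2, the receptor TrkB for brain-derived neurotrophic factor. The gene on chromosome 13 has 2 transcripts in these tables, which share the extracellular and membrane-spanning parts and then part. The longer reads on into the tyrosine kinase and codes for 821 codons. The shorter (TrkB.T1) takes an exon that adds 11 codons and a stop, and codes for 476 codons in all. The sequences below show the first bases after the point of divergence in each (GRCm38 transcripts of the GENCODE annotation, coding strand, + strand of chromosome 13). Lower case marks the last 15 shared bases, and capitals mark the bases specific to each form, at chr13:58932023-58932057 for the truncated end and chr13:58985802-58985836 for the kinase-coding end.
Ntrk2 truncated end: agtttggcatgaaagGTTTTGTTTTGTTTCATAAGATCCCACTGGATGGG
Ntrk2 start of the kinase-coding end: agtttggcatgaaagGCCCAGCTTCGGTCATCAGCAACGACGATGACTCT

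Ntrk2 as a whole stood at 353.0, 342.3, 474.2 and 395.1 TPM in libraries 1 to 4, higher than 98.7% of tested genes. Its truncated form held 94.4%, 95.3%, 94.3% and 95.0% of that level, and the kinase-coding form the remaining 5.3% ± 0.5 (SD, n = 4). The share was nearly constant between libraries, and by estimated counts instead of TPM it was 93.6%. The kinase-coding form still averaged 20.8 ± 4.6 TPM (SD, n = 4). With 7 neuronal markers summing to 1041 to 1286 TPM, the part of neurons in this level was not tested. Ntrk3, the receptor TrkC for neurotrophin 3, had 3.10, 6.04, 3.62 and 6.69 TPM, far under Ntrk2 in all 4 libraries. Ntrk2 exceeded Ntrk3 by 6.10 ± 0.54 on the log2(TPM + 1) scale (SD, n = 4). Kinase-coding transcripts made up 36.7% ± 6.2 of Ntrk3 by TPM and 63.0% by estimated counts, so for this gene the share depends on the scale. Its most abundant transcript alone was not past 1 TPM (log2 difference 0.16, limma adjusted p = 0.40).

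The 4 FGF receptors are kinases that bind FGFs with heparan sulphate, and Fgfrl1 is a relative that lacks the kinase. Fgfr1 had 29.5, 41.9, 34.9 and 38.4 TPM and Fgfr2 had 84.5, 86.1, 131.6 and 98.5 TPM. Fgfr3 was the highest, at 192.9, 223.6, 277.2 and 227.0 TPM. The order, Fgfr1 under Fgfr2 under Fgfr3, was the same in all 4 libraries and the 3 ranges did not overlap. Fgfr1 was lower than Fgfr3 by a log2 ratio of -2.64 ± 0.24, and Fgfr2 was lower than Fgfr3 by -1.20 ± 0.12 (SD, n = 4 each). Fgfrl1, at 31.7 to 43.2 TPM, overlapped Fgfr1. Fgfr4 was the lowest, at 2.17, 1.61, 3.94 and 1.58 TPM. Its call above 1 TPM (log2 difference 0.68 ± 0.24, SE) rested on all 4 libraries together, since leaving out any of them raised the limma adjusted p to between 0.06 and 0.10. Part of Fgfr2 overlaps Ctbp2 on the same strand, a gene at 35.9 TPM, and reads in shared bases are divided by estimate.

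FGF receptors 1 to 3 come in forms IIIb and IIIc, which carry alternative exons for the second part of the third immunoglobulin loop and differ in the FGFs they bind. IIIb is known from epithelia and IIIc from mesenchyme and neural tissue. The IIIc exon led over IIIb in all 3 receptors and all 4 libraries. Transcripts with the IIIc exon held 88.3% ± 5.4 of Fgfr3, 60.8% ± 4.1 of Fgfr2 and 79.8% ± 9.4 of Fgfr1, and those with the IIIb exon held 5.0% ± 2.7, 9.8% ± 3.9 and 8.5% ± 4.1 of the same genes (percent of the gene's TPM, SD, n = 4). By estimated counts the IIIb share of Fgfr1 was 4.1%. Most of the IIIb level of Fgfr3 and Fgfr1 lay in transcripts not annotated as protein-coding, and protein-coding IIIb transcripts held 1.1% ± 0.5 and 0.5% ± 0.6 of these genes, against 9.8% ± 3.9 of Fgfr2 (SD, n = 4 each). Of the TPM in transcripts with either exon, IIIc made up 94.6% ± 3.1 for Fgfr3, 86.4% ± 4.1 for Fgfr2 and 90.4% ± 4.0 for Fgfr1. For Fgfr2 this fraction was 90.6%, 82.0%, 83.9% and 89.2% in libraries 1 to 4. Transcripts with the exon for the first immunoglobulin loop, which distinguishes the long from the short receptor forms, held 77.1% ± 11.1 of Fgfr1 and 29.3% ± 2.6 of Fgfr2, and these ranges did not overlap. By estimated counts the shares were 90.9% and 31.0%.

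**Figure D2:**
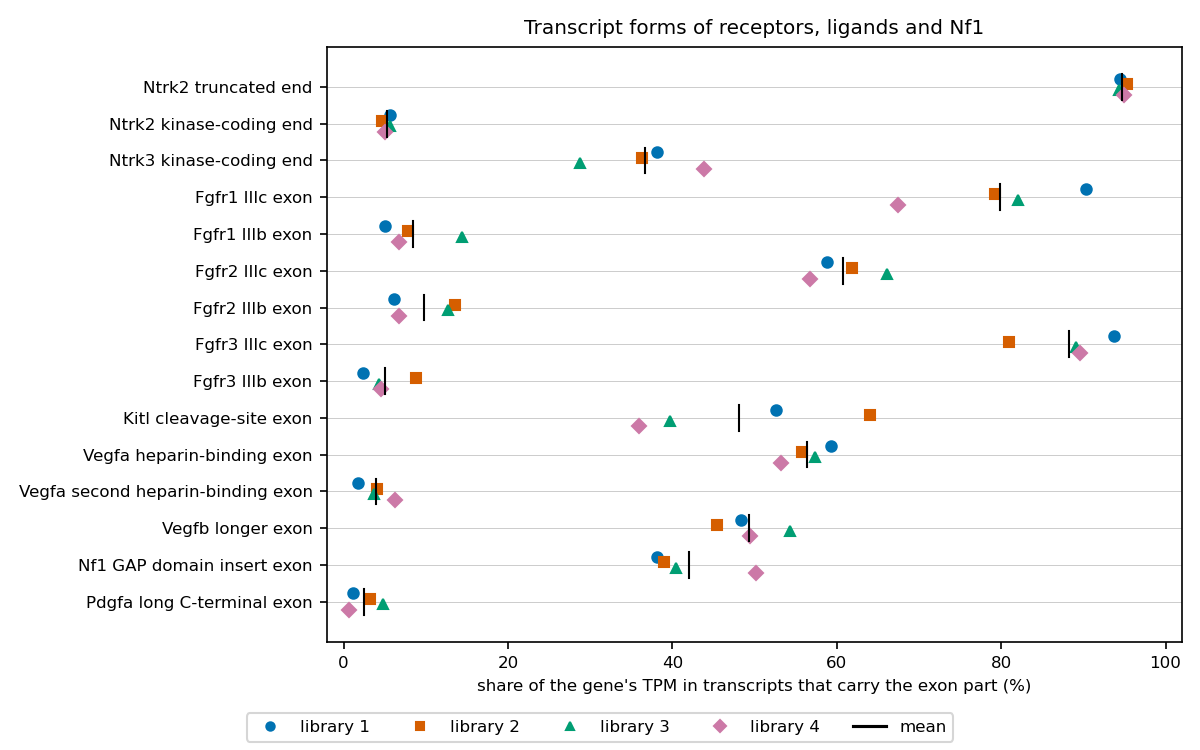
Share of a gene's TPM, in percent, held by transcripts that carry the exon part named on the left, with 1 symbol per library and a line at the mean. The truncated end of Ntrk2 lies between 94.3% and 95.3%, the IIIc exons lie right of the IIIb exons for all 3 FGF receptors, and the Kitl cleavage-site exon varies most of the parts drawn.

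The PDGF receptors bind dimers of the PDGF ligands, and Pdgfrb is the form known from pericytes and other mural cells of vessels, Pdgfra that known from oligodendrocyte precursors. Pdgfrb had 37.0, 19.8, 38.8 and 31.6 TPM, and Pdgfra had 11.2, 6.56, 7.21 and 5.88 TPM. Pdgfrb was higher in all 4 libraries, by 1.91 ± 0.42 on the log2(TPM + 1) scale (SD, n = 4), and the ranges did not overlap. Of 6 mural cell markers, none lay above 1 TPM, Kcnj8, Vtn and Higd1b had no count in any library, and the summed level was 0.664 to 2.57 TPM, highest in library 4. The pericyte gene Rgs5 was at 0.0334 to 0.636 TPM. Pdgfrb stood above each of the 6 mural markers in every library. Of 4 fibroblast markers, Col1a2 lay above 1 TPM, at 7.82 to 10.7 TPM, Dcn lay below, Col1a1 lay in neither group and Lum had no count. The part of mural cells or fibroblasts in the Pdgfrb level was not tested. For Pdgfra the neighbouring markers were present, with 6 of 7 oligodendrocyte precursor markers above 1 TPM and a summed level of 161.5, 162.3, 176.8 and 229.3 TPM. Olig1, at 91.1 to 122.9 TPM, and Olig2, at 27.1 to 52.7 TPM, gave most of this sum. Gpr17, Lhfpl3 and Neu4 averaged only 5.18, 5.05 and 3.83 TPM. Cspg4, at 1.01 to 6.48 TPM, was the marker in neither group (limma adjusted p = 0.067). Pdgfra was highest in library 1 and lowest in library 4. Of the precursor markers, Neu4 was also highest in library 1, and the others were highest in library 4. The part of oligodendrocyte precursors in the Pdgfra level was not tested.

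The VEGF receptors all lay below 1 TPM. Flt1, which codes for VEGFR1, was at 0.0437 to 0.146 TPM on 13.1 estimated counts over the 4 libraries, and Kdr, coding for VEGFR2, was at 0.0324, 0.668, 0.332 and 0.0830 TPM on 66 estimated counts. Kdr was thus detected above the level of 3 counts in libraries 2 to 4, highest in library 2. In libraries 3 and 4 all of that level lay in a retained-intron transcript. The protein-coding transcript of Kdr had 0.0111 and 0.493 TPM in libraries 1 and 2 and 0 TPM in libraries 3 and 4. Flt4, coding for VEGFR3, had 0.124 TPM in library 2 and no count in the others, where 3 counts would have been 0.0309 to 0.0448 TPM. None of the 3 reached 1 TPM in any library. The Kdr call below 1 TPM was lost with edgeR's quasi-likelihood test (adjusted p = 0.11). Among 8 endothelial markers the cadherin Cdh5 had no count, 5 lay below 1 TPM and Pecam1 and Egfl7 lay above it, and the summed level was 11.5 to 21.4 TPM, of which Egfl7 gave 5.95 to 16.7 TPM.

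**Figure D3:**
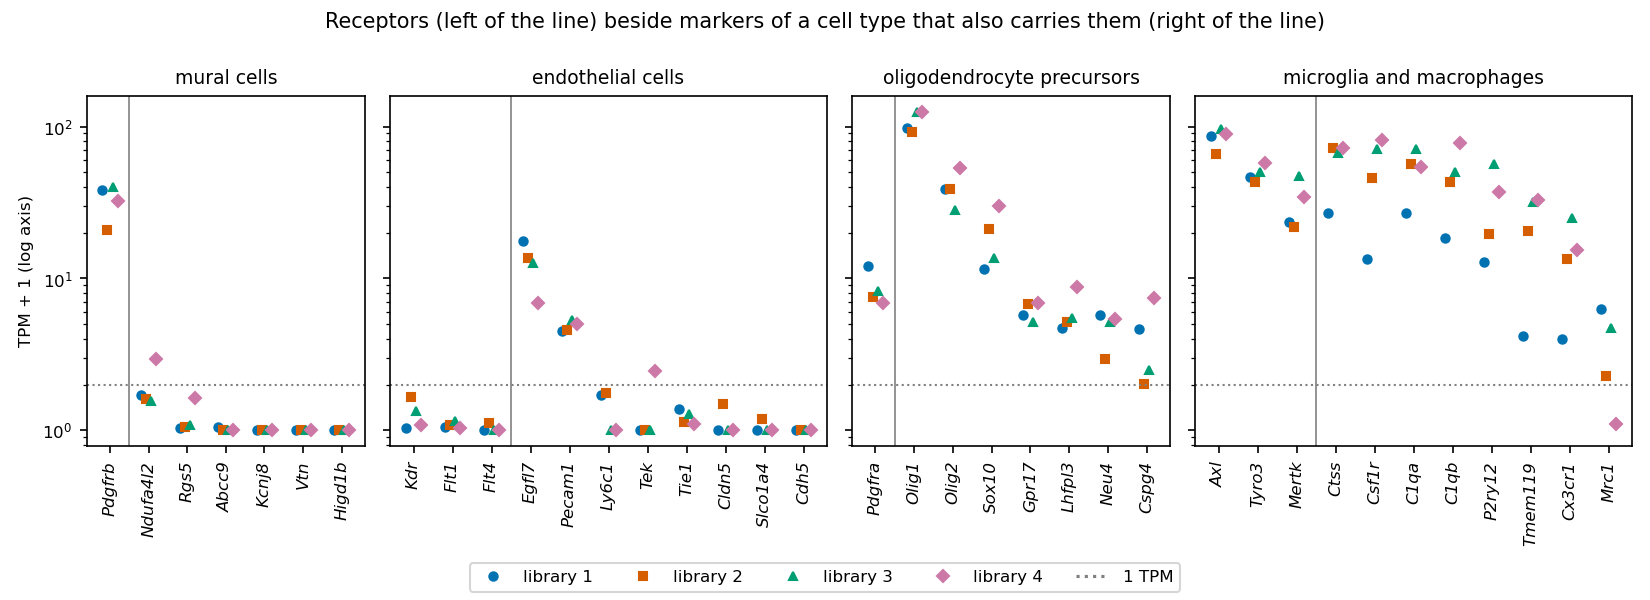
TPM + 1 on a log axis for receptors, left of the line in each panel, with 1 symbol per library. Markers of a cell type set beside them lie right of the line, and not every receptor drawn is typical of that cell type. Pdgfrb lies between 19.8 and 38.8 TPM while every mural marker lies under 2 TPM, and the VEGF receptors lie under 1 TPM with most endothelial markers. The microglial markers other than Mrc1 are lowest in library 1. The TAM receptors are lowest in library 2, and Mertk is highest in library 3. The part of microglia in their levels was not tested.

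The TAM receptors Axl, Mertk and Tyro3 bind Gas6 and protein S and are known for the uptake of dying cells. All 3 lay above 1 TPM. Mertk had 22.6, 20.7, 46.1 and 33.2 TPM, Tyro3 had 45.6, 42.2, 49.5 and 56.5 TPM, and Axl had 85.2, 65.2, 95.2 and 88.4 TPM. Axl was the highest of the 3 in every library, and Mertk, the most variable, was highest in library 3. Their lowest values were all in library 2. The microglial marker sum was lowest in library 1, at 105.1 TPM against 265.5, 368.8 and 363.7 TPM in libraries 2 to 4, and its part in these levels was not tested. Met, the receptor for hepatocyte growth factor, was below 1 TPM, at 0.322, 0.383, 0.326 and 0.0139 TPM. With edgeR's quasi-likelihood test its adjusted p was 0.082.

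The ligand Kitl, stem cell factor, had 14.5, 10.03, 14.4 and 12.6 TPM. Its receptor Kit differed most between libraries among the receptors, with 0.0127, 3.82, 1.13 and 4.29 TPM. Library 1 held 1 estimated count of it, and libraries 2 and 4 were the high ones. Its SD on the log2 scale, 1.12, was larger than that of 92.7% of genes of like level. Kitl was higher than Kit in all 4 libraries. Kitl is made as a membrane-bound or a shed protein, depending on an exon that carries the main cleavage site. That exon is shown because transcripts with and without it were both abundant (GRCm38, chr10:100080857-100080940, + strand, capitals mark the 84 bases of the exon and lower case 15 bases on each side).
Kitl cleavage-site exon: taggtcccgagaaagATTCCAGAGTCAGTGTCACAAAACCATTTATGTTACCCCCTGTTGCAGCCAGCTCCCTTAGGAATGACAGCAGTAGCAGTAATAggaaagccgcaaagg

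The transcript with the cleavage site held 52.6%, 64.1%, 39.7% and 35.9% of Kitl by TPM in libraries 1 to 4. The mean share was 48.1% ± 12.8 (SD, n = 4), and by estimated counts it was 81.8%, because the transcripts differ in length. Which form leads therefore depends on the scale and, by TPM, on the library.

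Among the FGF ligands, the acidic factor Fgf1 had 7.95, 7.46, 10.03 and 11.3 TPM, and the basic factor Fgf2, the usual stem cell mitogen, had 5.64, 1.90, 2.74 and 1.60 TPM. Fgf1 was higher in all 4 libraries, by 1.44 ± 0.75 on the log2(TPM + 1) scale (SD, n = 4). Library 1 stood apart as the high library for Fgf2. The Fgf2 call above 1 TPM was lost without library 1, 2 or 3 (limma adjusted p 0.055, 0.076 and 0.11). Fgf2 also overlaps Nudt6 on the opposite strand, a gene at 5.49 TPM, and the cDNA kit does not mark strand. Fgf9, known as a glial and neuronal factor, was at 0.677, 0.729, 0.395 and 1.60 TPM and passed in neither direction, and without library 4 it lay below 1 TPM (limma adjusted p = 0.043). Fgf10, a factor of mesenchyme, was at 0.0649 TPM in library 1 and 0.0159 TPM in library 4, with no count in libraries 2 and 3, where 3 counts would have been 0.0521 and 0.0689 TPM.

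Fgf13 and Fgf14 code for FGF homologous factors, which stay in the cell and bind sodium channels rather than receptors. Fgf13 was among the steadiest members, at 59.7, 55.6, 65.3 and 61.5 TPM, and its SD on the log2 scale, 0.09, was larger than that of only 6.7% of genes of like level. A single transcript of 245 codons held 87.1% ± 2.3 of it (SD, n = 4). Fgf14 had 2.84, 1.80, 1.35 and 3.14 TPM, and its call above 1 TPM was lost without library 1, 2 or 4 (limma adjusted p 0.096, 0.071 and 0.084). Fgf13 exceeded Fgf14 by 4.27 ± 0.41 on the log2(TPM + 1) scale (SD, n = 4). The part of neurons in the Fgf13 and Fgf14 levels was not tested.

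Of the PDGF ligands, Pdgfa, the ligand of Pdgfra, was the highest, at 33.5, 38.9, 44.6 and 48.1 TPM. It exceeded Pdgfra by 2.30 ± 0.56 and Pdgfc by 1.85 ± 0.28 on the log2(TPM + 1) scale, in all 4 libraries (SD, n = 4 each). Pdgfc had 9.62, 7.27, 13.4 and 13.5 TPM, but a transcript annotated for nonsense-mediated decay held 49.4% ± 7.8 of it and the full protein-coding transcript 50.3% ± 8.0. Pdgfb, the main ligand of Pdgfrb, was at 0.0696, 0.424, 0.793 and 1.61 TPM, lowest in library 1 and highest in library 4. Pdgfd was at 1.41 TPM in library 4, at 0.0842 TPM in library 2 and had no count in libraries 1 and 3. Its call below 1 TPM was lost without library 1, 2 or 3 (limma adjusted p 0.20, 0.21 and 0.20). The exon that adds the long C terminus to Pdgfa was rare, at 2.5% ± 1.9 of its TPM (SD, n = 4).

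Of the VEGF ligands, Vegfa and Vegfb were high and Vegfc was low. Vegfa, the main angiogenic factor, had 53.4, 110.9, 89.1 and 79.2 TPM, lowest in library 1 and highest in library 2. Vegfb had 155.1, 140.4, 139.0 and 155.5 TPM and was the steadiest member by fold, its highest library being 1.12 times its lowest. Vegfa stayed under Vegfb in all 4 libraries, by a log2 ratio of -0.86 ± 0.51 (SD, n = 4). Vegfc, a lymphatic factor, had 0.372, 2.09, 2.77 and 2.81 TPM. It passed in neither direction with all libraries and lay above 1 TPM without library 1 (limma adjusted p = 0.021). Library 1 was also the lowest for the microglial, oligodendrocyte and ependymal marker sums and the highest for the neuronal and neuroblast sums given above, and their part in the low Kit, Pdgfb, Vegfa and Vegfc levels there was not tested.

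Vegfa and Vegfb transcripts differ in exons that set how the proteins bind heparin and matrix. The exons are shown because forms with and without them were both abundant (GRCm38, both on the minus strand, capitals mark the exon part and lower case 15 bases on each side). The Vegfa exon lies at chr17:46020991-46021122 and the part specific to the longer Vegfb form at chr19:6985496-6985596.
Vegfa heparin-binding exon: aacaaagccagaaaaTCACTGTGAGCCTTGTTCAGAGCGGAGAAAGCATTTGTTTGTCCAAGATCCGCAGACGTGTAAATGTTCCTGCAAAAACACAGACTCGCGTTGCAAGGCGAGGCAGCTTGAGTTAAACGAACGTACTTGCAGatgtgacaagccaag
Vegfb longer exon: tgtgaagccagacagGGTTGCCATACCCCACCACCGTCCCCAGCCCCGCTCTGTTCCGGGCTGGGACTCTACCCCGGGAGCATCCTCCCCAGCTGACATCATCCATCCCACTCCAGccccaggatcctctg

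The heparin-binding exon was carried by transcripts holding 56.4% ± 2.6 of Vegfa, and the second such exon, found in the longest forms, by 4.0% ± 1.8 (SD, n = 4 each). Protein-coding transcripts with the heparin-binding exon held 43.5% ± 5.0 of Vegfa (SD, n = 4), and the rest of the 56.4% lay in a retained-intron transcript. Another retained-intron transcript, without the exon, held 18.0% ± 4.5, and in all 35.1% of Vegfa by TPM was not annotated as protein-coding. That transcript is only 463 bases long and held 2.5% by estimated counts. The next largest retained-intron transcript held 12.9% by TPM and 4.3% by estimated counts. Transcripts with the heparin-binding exon held 65.9% by estimated counts, so these shares depend on the scale. For Vegfb the 101 bases of the longer form shift the reading frame, so that the 2 main transcripts end in different C termini. The longer form held 48.3%, 45.4%, 54.3% and 49.4% in libraries 1 to 4. The forms were thus near equal, and neither led in every library.

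All 8 transducers lay above 1 TPM, and none lost that call in any alternative tried at this level. Hras, a RAS GTPase, had 151.0, 136.9, 116.4 and 179.7 TPM, and Nras had 46.3, 42.6, 63.1 and 41.6 TPM. The MEK kinases Map2k1 and Map2k2 averaged 85.3 ± 15.1 and 143.4 ± 12.6 TPM (SD, n = 4 each), with Map2k1 lower in every library. Mapk3, which codes for ERK1, had 77.5, 56.0, 65.3 and 83.0 TPM. It was lowest in library 2 and highest in library 4. The RAF kinase Braf was steady, at 10.3, 10.4, 12.3 and 11.5 TPM. The adaptor Grb2 stood at 54.97 to 62.8 TPM and the exchange factor Sos1 at 7.56 to 9.50 TPM. Braf overlaps Ndufb2, at 232.7 TPM, on the opposite strand, so some Braf reads are uncertain.

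Among the inhibitors, the Spred genes, Dusp6, Spry2 and Rasa1 differed little between libraries. Spred1, which brings neurofibromin to RAS, had 37.9, 47.7, 41.4 and 40.5 TPM, and its relative Spred2 had 7.92, 10.3, 9.22 and 8.44 TPM. The log2 ratio of Spred1 to Spred2, 2.11 ± 0.04 (SD, n = 4), had the smallest SD of the 25 pairs compared. The ERK phosphatase Dusp6 had 21.4, 28.0, 20.1 and 18.2 TPM, and the Sprouty inhibitor Spry2 had 19.1, 16.1, 12.9 and 14.2 TPM. Nf1 codes for neurofibromin and Rasa1 for RasGAP, both GTPase-activating proteins of RAS. Nf1 had 8.0, 4.49, 4.62 and 6.98 TPM, in every library lower than Rasa1 with 30.4 to 40.5 TPM. Rasa1 overlaps Ccnh, at 66.3 TPM, on the opposite strand. Transcripts not annotated as protein-coding held 48.8% of Nf1 by TPM, and its most abundant transcript alone was not past 1 TPM (log2 difference 0.32, limma adjusted p = 0.17). By estimated counts, 2 protein-coding transcripts held 51.9% and 35.7% of Nf1, so the non-coding share depends on the scale. Transcripts with the insert exon of the GAP domain held 42.0% ± 5.6 of Nf1 by TPM and 54.6% by estimated counts, but this includes a processed transcript with no coding sequence. The protein-coding transcript with the insert held 28.1% ± 13.8 by TPM (SD, n = 4 each).

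Spry1, Spry4 and Dusp4 varied more. Spry1 had 1.08, 3.54, 11.03 and 8.15 TPM, lowest in library 1 and 10.3 times as high in library 3, and its log2 SD of 1.13 was larger than that of 95.9% of genes of like level. Spry4 had 2.39, 1.24, 5.02 and 6.88 TPM, high in libraries 3 and 4. Dusp4 had 4.27, 3.07, 8.19 and 1.28 TPM, high in library 3 and low in library 4. Spry1 and Spry4 were both higher in libraries 3 and 4 than in libraries 1 and 2, and Dusp4 was not. Each of their calls above 1 TPM was lost when single libraries were left out, for Spry1 without library 2, 3 or 4 (limma adjusted p 0.10, 0.12 and 0.13), for Spry4 without library 1, 3 or 4 (0.078, 0.13 and 0.10) and for Dusp4 without library 1, 2 or 3 (0.11, 0.096 and 0.083). Spry2 exceeded Spry1 in all 4 libraries, by 3.28, 1.91, 0.21 and 0.73 on the log2(TPM + 1) scale. Spry3, which the annotation places on a scaffold outside the assembled chromosomes, had 0.978, 0.969 and 0.0217 TPM in libraries 1 to 3 and no count in library 4.

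The ETS factors Etv1, Etv4 and Etv5, whose transcripts rise with FGF signalling in many tissues, all lay above 1 TPM. Etv5 had 33.8, 28.0, 37.5 and 37.6 TPM, Etv1 had 32.6, 19.2, 23.4 and 24.7 TPM, and Etv4 had 3.67, 8.29, 6.11 and 5.97 TPM. Etv5 was the highest and Etv4 the lowest in all 4 libraries. Library 1 was the highest for Etv1 and the lowest for Etv4, so the members of this group did not share an order of libraries. Transcripts not annotated as protein-coding held 47.6% of Etv4 and 30.4% of Etv1 by TPM. The most abundant Etv4 transcript alone was not past 1 TPM (log2 difference 0.28, limma adjusted p = 0.37). By estimated counts, 2 protein-coding transcripts held 49.1% and 26.7% of Etv4, and a retained-intron transcript held 38.2% of Etv1.

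Related genes were compared within each library in 25 pairs, and 24 pairs kept their direction in all 4 libraries. The exception was Flt1 with Kdr, both below 1 TPM. With 4 libraries an exact two-sided sign-flip test cannot give a p below 0.125, and every pair that kept its direction had that p (0.13 after Benjamini-Hochberg adjustment over the 25 pairs), so no pair could pass 0.05. The pairs with the largest SDs of the log2 ratio were Spry2 with Spry1, at 1.53 ± 1.36, and Kitl with Kit, at 2.34 ± 1.30 (SD, n = 4 each). The median log2 SD was 0.26 over the 43 members of at least 1 TPM and 0.30 over all 14087 tested genes of at least 1 TPM.

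**Figure D4:**
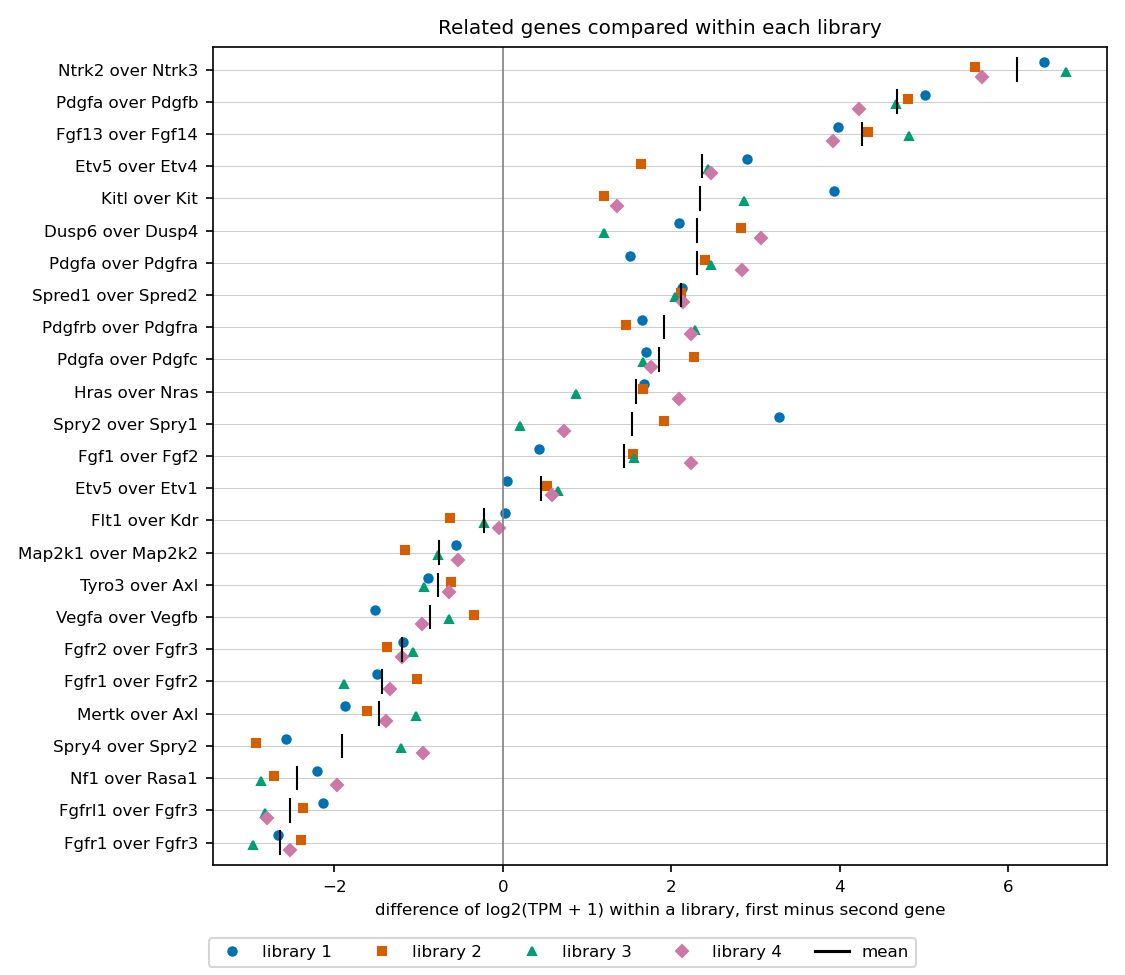
Difference of log2(TPM + 1) between paired genes within each library, first minus second gene, with 1 symbol per library and a line at the mean. Symbols lie on a single side of 0 for 24 of 25 pairs, Spred1 over Spred2 is the tightest pair and Spry2 over Spry1 the widest.

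Of 87 further genes of the same pathways, 56 (64.4%) lay above 1 TPM, against 62.8% of all tested genes, 16 (18.4%) lay below, against 23.2%, and 12 lay in neither group, and Fgf4, Fgf20 and Fgf21 had no count in any library. Of 22 further secreted ligands, 5 lay above and 10 below, and the FGF homologous factors Fgf11 and Fgf12, named here after their values were seen, lay above as well. The ligands were led by the TAM ligands Gas6, at 65.2 to 139.4 TPM, and Pros1, at 17.7 to 33.4 TPM, and by placental growth factor, Pgf, at 7.64 to 16.6 TPM. Of 14 further receptors and co-receptors, 7 lay above and 5 below. The highest were the heparan sulphate carriers Sdc4, at 97.4 ± 22.7 TPM, Sdc2, at 76.6 ± 12.8 TPM, and Gpc1, at 64.8 ± 6.6 TPM (SD, n = 4 each), and the lowest were the klotho relative Klb and the receptor Ret, both below 1 TPM. Of 22 further transducers 18 lay above and none below, with the RAF kinase Araf highest at 115.8 ± 13.9 TPM (SD, n = 4) and the scaffold Ksr2 and the adaptor Shc2 lowest, in neither group.

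Of 17 further inhibitors 14 lay above and 1 below. The ERK-binding protein Pea15a, at 556.1 to 748.7 TPM, the RAF inhibitor Pebp1, at 527.3 to 613.7 TPM, and the phosphatase Dusp1 were the highest, and Dusp9, below 1 TPM, and Il17rd, in neither group, were the lowest. Dusp1, an immediate early gene, had 319.8, 456.8, 676.6 and 232.8 TPM. Its order of libraries, 3, 2, 1, 4, differed from that of Dusp4 only in libraries 1 and 2. All 10 further ERK-linked transcription factors lay above 1 TPM, from Ets1 at 3.59 ± 0.52 TPM and Elk3 at 3.73 ± 1.71 TPM to Elk4 at 14.7 ± 5.0 TPM, Srf at 15.6 ± 0.8 TPM and the repressor Cic at 24.8 ± 6.0 TPM (SD, n = 4 each).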

How the data were processed

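Total RNA of sorted cells was made into cDNA with a SMART-Seq v4 low-input kit and sequenced as 100-base pairs, per the labels' protocols. The submitters' processing notes name kallisto, sleuth and mm10, whose versions were not given in the sources used here. Each deposited table gives estimated counts and TPM per transcript, made by the authors. Of 99567 transcripts, 98294 matched GENCODE M21 (GRCm38) by identifier, 92612 of them with the same version. TPM were summed per gene. log2(TPM + 1) was taken for the 19914 genes that had a count in at least 1 library and set against 1 TPM with limma 3.58.1 (trend, R 4.3.3) and Benjamini-Hochberg adjustment over all of them. In counts simulated at a fixed dispersion of 0.1, with 200 genes a level, 86% were called above at 2 TPM and 100% at 4 TPM. At 1 TPM itself 4.5% were called below. Real genes near Fgfr4 in level had a median log2 SD of 0.54, and whether the simulated counts spread as much was not tested. Members of a pair were compared within a library with an exact sign-flip test. kallisto divides reads shared by transcripts by estimate, so transcript shares are a description without a test, and TPM are relative levels that mitochondrial transcripts (13.5% to 18.4% of TPM) lower for all other genes. Alternatives changed the pseudocount (0.1), the level (5 TPM), the filter, the scaling (TMM, DESeq2 1.42.0, nuclear protein-coding genes), the transcripts used, the test (edgeR 4.0.16, on estimated counts rounded to whole numbers) and the libraries. The genes, lists, pairs and forms were chosen with earlier results of these data known. All members may be named, and of the further genes up to 3 of the highest and 2 of the lowest of each role. Some further genes and an exon sequence are not reported here. Floors stand for 3 counts and cover counting error only.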

Additional observations from a re-analysis of the deposited data

Results flagged for a closer look

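Across 75 sets of 4 library values, 3 had a single library far from the rest, where chance flags about 1 in 20. Flt4 was at 0.124 TPM in library 2 and had no count in the others. A gene with counts in a single library is always flagged by this rule, so the chance rate does not apply to Flt4. Met was at 0.0139 TPM in library 4, where it had 1 estimated count, and at 0.322 to 0.383 TPM in the others. Pdgfd was at 1.41 TPM in library 4 and at 0 to 0.0842 TPM in the others. All 3 genes lay below 1 TPM on average, and why these libraries differed was not tested.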

How the results depend on the processing

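In 13 alternatives at 1 TPM, 37 of 52 members kept their call and the sign of their log2 difference wherever they were tested. Of these, 32 lay above and 3 below (Flt1, Flt4 and Fgf10, which have no value with at least 5 estimated counts). Kit stayed in neither group but is not among the 37, because its sign turned. The number above was 36 to 37 without a single library, and the number below was 5 to 7. The number below was 3 with at least 5 estimated counts, 3 with edgeR's quasi-likelihood test (Kdr, Met and Pdgfd lost) and 13 against 5 TPM. Against 5 TPM the log2 difference turned negative for Fgfr4 (-0.91), Ntrk3 (-0.09), Kit (-1.14), Fgf2 (-0.70), Fgf14 (-0.91), Vegfc (-1.10), Spry1 (-0.08), Spry4 (-0.46) and Dusp4 (-0.38), by construction of the higher level. Kit was at -0.06 with its most abundant transcript alone, and Fgf9 at 0.05 after rescaling over nuclear protein-coding genes. The same rescaling raised the class medians to 5.20 for receptors, 3.06 for ligands, 6.45 for transducers, 3.59 for inhibitors and 5.09 for ETS factors. Class means in place of medians were 3.83, 3.04, 5.66 and 4.19 for receptors, ligands, transducers and ETS factors, and protein-coding transcripts only gave 2.35 for ligands and 4.14 for ETS factors. Without a single library the medians ranged over 4.65 to 4.92, 2.62 to 2.82, 6.00 to 6.06, 3.12 to 3.28 and 4.54 to 4.79 for receptors, ligands, transducers, inhibitors and ETS factors, and 24 to 25 pairs kept their direction. By estimated counts, 11 of 18 transcript shares moved by more than their SD. With no filter on counts, 7 members lost their call. The cause of these shifts was not tested beyond what is stated. No paired analysis was possible because the libraries form 1 group. Calls above 1 TPM that were lost without a single library belonged to genes of 2.28 to 5.95 TPM on average (Fgf14, Fgfr4, Fgf2, Spry4, Dusp4 and Spry1). Leaving the FGF homologous factors out of the ligand median, an alternative chosen after seeing the data, gave 2.69.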
